A study of Mus musculus with 5 samples.

Results

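The 9 mRNAs described here encode proteins that carry out or control translation: Fmr1, the translation initiation factors Eif2s1, Eif4b, Eif4e2 and Eif4g3, the poly(A)-binding protein Pabpc1, and the RNA-binding proteins Pum2, Stau2 and Tia1. They were taken by gene symbol because CYFIP1, the protein that was precipitated, is a partner of FMRP and of the cap-binding protein eIF4E. A region counted for one of them when the deposited annotation placed it inside the gene, across one of its ends or around it. On that rule all 9 genes had a region in at least 1 of the 4 deposited lists, among 4727 genes of the whole series, and they held 91 region entries at 61 distinct places. Only Eif2s1 and Pum2 had a region in all 4 lists.

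The series is an RNA immunoprecipitation followed by sequencing (RIP-seq) from hippocampus of C57BL/6 mice, with 5 libraries in 3 groups. The knock-in HA group holds 2 libraries, precipitated with an antibody against the HA tag, and the knock-in IgG group holds 2 libraries, precipitated with mouse control IgG from knock-ins of the same numbers. The wild-type HA group holds 1 library, precipitated with anti-HA from tissue without the tag. Each list sets 1 knock-in HA library against 1 control, so both wild-type lists share 1 control library. All groups share the strain, the tissue, the lysis and the bead step. The labels number the knock-ins 1 and 2 and give no age, no sex and no detail of the tagged allele. They do not say whether a library came from 1 animal or from a pool, so a spread between the pair may be technical only.

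FMRP, the fragile X protein, binds mRNAs in neurons and represses their translation, and CYFIP1 is held to act with it by occupying eIF4E so that eIF4G cannot bind the cap complex. eIF4E recognises the cap, eIF4G bridges it to the ribosome, eIF4B assists the unwinding of the 5' end, and eIF2 delivers the initiator tRNA. Pumilio, Staufen and TIA proteins bind mRNAs directly and take part in their transport, storage or repression in dendrites and granules.

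The sequences below lie inside called regions and show which coding parts or sites of an mRNA those regions take in. Reads are counted per region, so they do not place reads on these bases. All are from GENCODE transcripts on GRCm38 and run 5' to 3' along the mRNA. The first is the coding exon of Eif2s1 that holds the start codon, chr12:78866527-78866767 on the plus strand, which lies in a region of all 4 lists. Capitals mark the start codon and the codon of the serine that is phosphorylated in the integrated stress response, codon 52 with the start methionine counted and 51 without it.
Eif2s1: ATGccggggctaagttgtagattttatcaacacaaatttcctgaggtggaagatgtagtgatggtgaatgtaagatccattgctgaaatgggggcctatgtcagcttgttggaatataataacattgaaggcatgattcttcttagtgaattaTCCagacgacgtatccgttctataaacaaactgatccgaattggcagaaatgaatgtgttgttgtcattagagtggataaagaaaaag
The second is a 109-base coding exon of Eif4g3, chr4:138120346-138120454 on the plus strand, inside the shortest Eif4g3 region found in 3 lists.
Eif4g3: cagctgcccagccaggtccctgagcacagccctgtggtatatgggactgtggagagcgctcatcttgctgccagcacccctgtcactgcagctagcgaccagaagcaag
The third is the 33-base alternative exon of Tia1, chr6:86419101-86419133 on the plus strand, at the upstream end of the Tia1 region with the most HA reads. It is part of 2 of the 5 protein-coding Tia1 transcripts.
Tia1: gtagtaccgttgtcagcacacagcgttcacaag
The last pair are 30-base stretches of the Pum2 3' UTR around a match to the Pumilio motif TGTANATA, in capitals, at chr12:8750154-8750183 and chr12:8750407-8750436 on the plus strand.
Pum2 first site: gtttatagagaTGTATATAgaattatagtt
Pum2 second site: atgtacagaatTGTATATActtataattgt

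The lists hold only reads inside called regions, and library depth is therefore unknown. The HA over IgG lists had 4191 regions for knock-in 1 and 1920 for knock-in 2, and the HA over wild-type lists had 5355 and 5362. A fold is the sum of HA reads over the sum of control reads on a gene, divided by the median region ratio of the same list, taken over regions with at least 20 reads. That median was 2.89 and 0.947 for the IgG lists and 1.41 and 1.75 for the wild-type lists. A control of 0 reads was set to a floor of 3 reads per gene and list, and such a fold is a lower bound. Intervals are 95% Clopper-Pearson counting intervals for 1 library pair, and since PCR copies of 1 molecule count as separate reads, they and the floor reflect counting error alone. The list of knock-in 2 over IgG stood apart: 828 of its 1920 regions lay on chromosome 12 and 817 on chromosome 15, against 75 on chromosome 4, 4 on chromosome 6, 11 on X and 0 on chromosome 1. Eif4e2 and Stau2 lie on chromosome 1, Eif4g3 on 4, Tia1 on 6 and Fmr1 on X, so their lack of a region there goes with the near lack of any region on those chromosomes. The wild-type list of knock-in 1 likewise had 1 region on X. The precipitated protein's own mRNA, Cyfip1, held 6101 HA and 67 IgG reads in knock-in 1 (31.5-fold) and 6186 and 115 in knock-in 2 (56.8-fold), with 431 and 416 reads of the wild-type library in the wild-type lists. Of 9 hippocampal neuron markers, Prox1 had a region in 3 lists and Slc17a7 in 1. These lists therefore give no check of the tissue beyond those genes, since a marker without a region has no value in them.

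The members' regions held few reads. They held 138 and 128 HA reads over IgG, against 48 and 168 IgG reads on the same bases. Over wild type they held 239 and 317 HA reads, against 169 and 158 wild-type reads. Of the HA reads in all regions that was 0.139% and 0.200% in the IgG lists, with 0.155% and 0.190% in the wild-type lists. A single member region held between 2 and 47 HA reads. Input RNA was not analysed here, so the amount of an mRNA in the tissue, the number of cells that hold it and its capture cannot be told apart. For the sum of the members, the log2 scaled ratio to IgG was -0.01 and -0.31 (mean -0.16 ± 0.21 SD, n = 2). To wild type it was 0.00 and 0.20 (mean 0.10 ± 0.14 SD, n = 2). The counting interval of each of the 4 sums included 0, the median of regions with at least 20 reads. This rests on that median: with no minimum of reads behind it the IgG sums were -0.48 and -0.88, and the wild-type sums -0.90 and -0.58. All but the first left their interval.

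**Figure D1:**
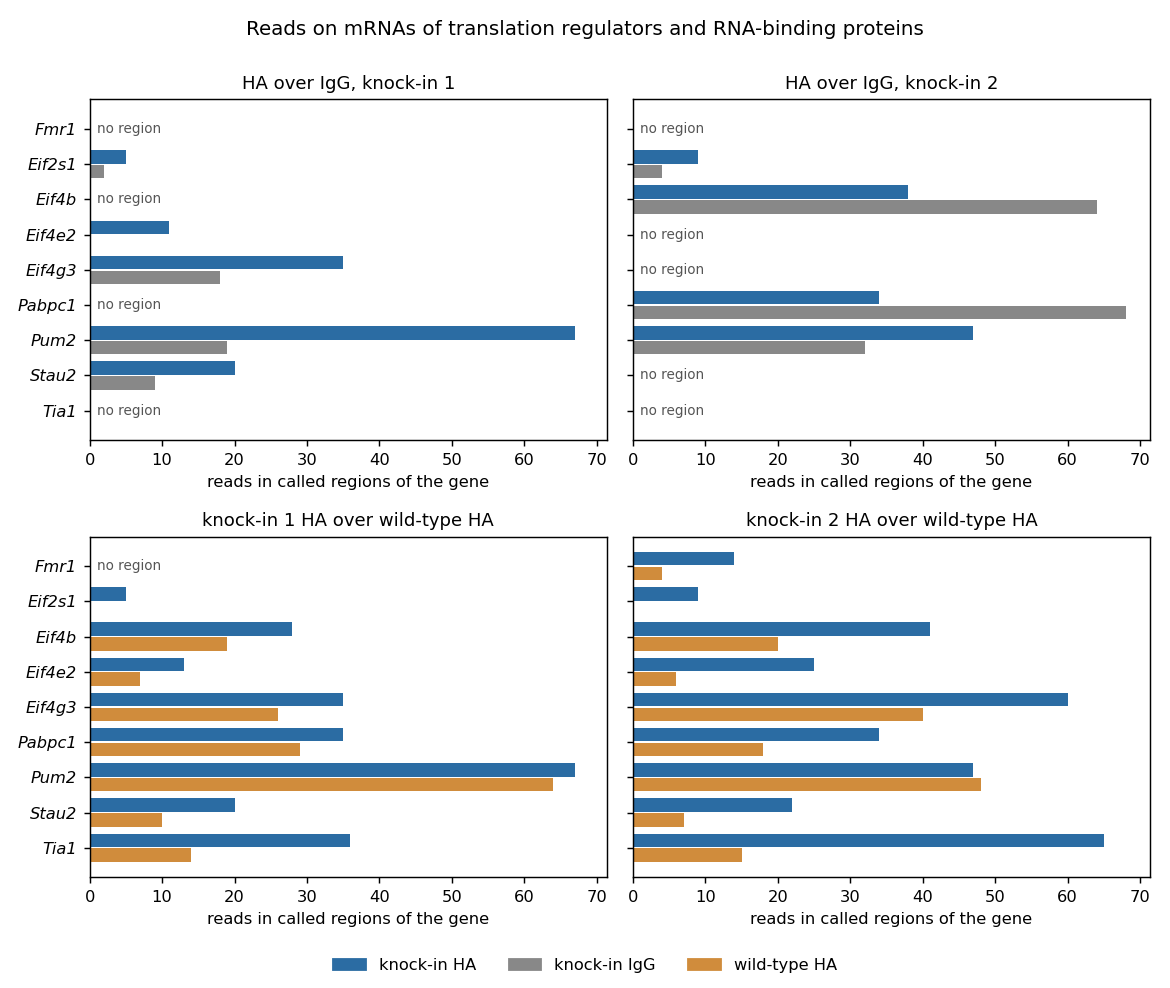
Reads in the called regions of each gene (x axis, read count) for the knock-in HA library (upper bar) and its control (lower bar), 1 panel per list and no replicate within a panel. HA bars exceed wild-type bars except for Pum2 in knock-in 2, while IgG bars exceed HA bars for Eif4b and Pabpc1 in knock-in 2.

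Single mRNAs were counted as past the limit when the scaled fold was at least 2 or at most 0.5 on at least 20 reads. Over IgG, 0 of 3 members with that many reads reached 2-fold and 0 lay at 0.5 or less in knock-in 1, where 9.66% of 1097 genes were that high and 20.1% that low. In knock-in 2 it was again 0 of 3 in either direction, where 8.76% of 719 genes were that high and 18.9% that low. Over wild type, 0 of 7 members passed in either direction in knock-in 1 (13.4% and 4.22% of 1942 genes). In knock-in 2, 2 of 7 were at least 2-fold higher, Eif4e2 and Tia1, and 0 were that low (11.6% and 4.59% of 1677 genes). Among members with at least 20 reads the median fold was 0.768 and 0.627 over IgG, against 0.839 and 0.822 for all such genes. Over wild type it was 1.04 and 1.17, against 1.15 and 1.10 for all such genes. No exact permutation test of 2 HA against 2 IgG libraries can go below p = 0.333, and over wild type there is 1 control, so these folds carry counting intervals in place of a test.

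**Figure D2:**
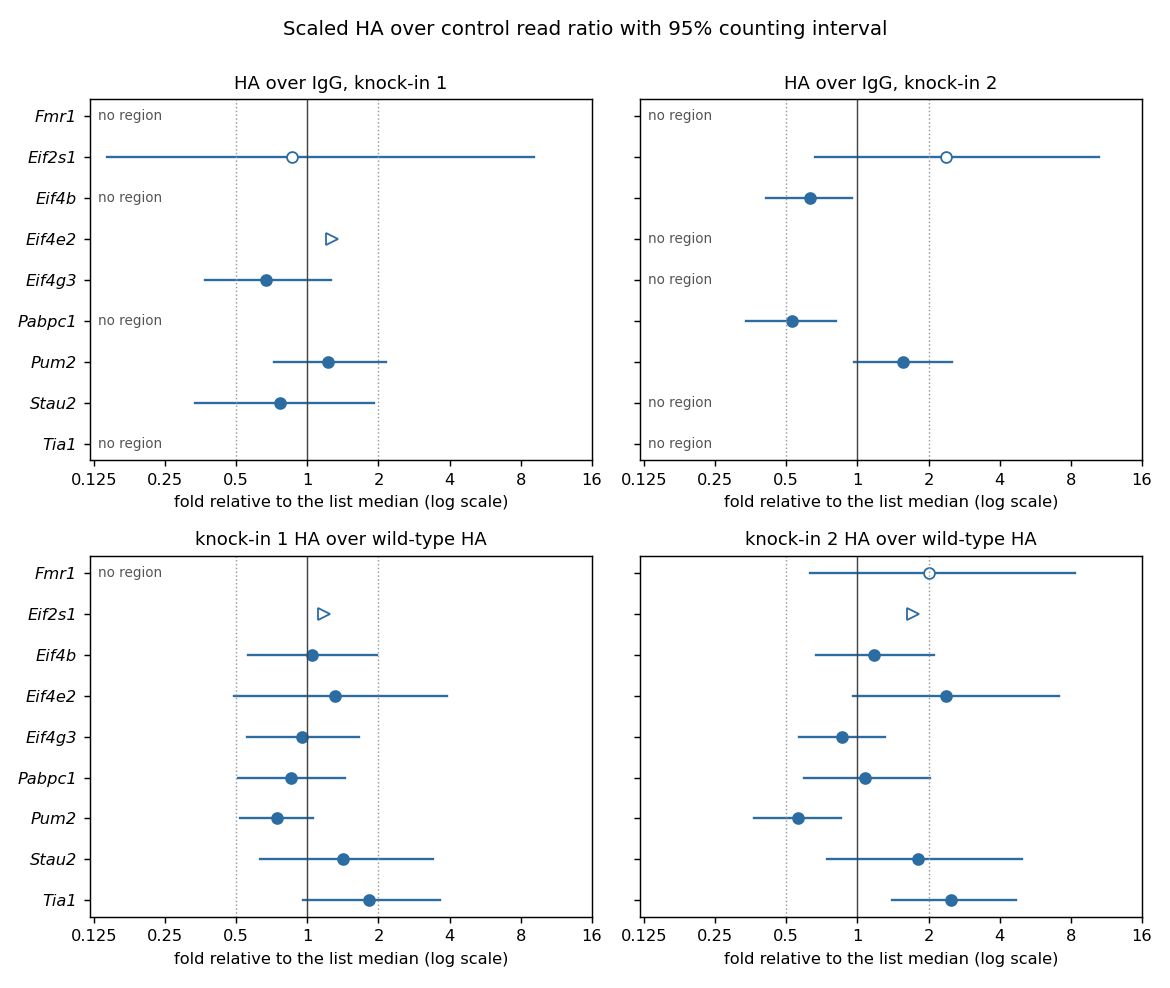
Scaled HA over control ratio of each gene (x axis, fold on a log scale, 1 is the list median) with its 95% counting interval, 1 panel per list. Filled points rest on at least 20 reads and open points on fewer, open triangles are lower bounds against a control of 0 reads, and dotted lines mark 0.5 and 2. The interval of Tia1 over wild type in knock-in 2 lies above 1, while those of Pum2 over wild type and of Eif4b and Pabpc1 over IgG in knock-in 2 lie below 1.

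Fmr1, which encodes FMRP, had 1 region in 1 list. It ran over 21.6 kb in the second part of the gene (ENSMUSG00000000838, chrX:68678541-68717963), touched 12 exons and held 14 knock-in HA reads and 4 wild-type reads in knock-in 2. The scaled fold was 2.00 (interval 0.628 to 8.34) and rests on 18 reads. The authors' deposited table gives this region an adjusted p of 0.00118 and an empirical false discovery rate of 0.942. In the other 3 lists Fmr1 had no region, which leaves its reads there unmeasured.

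Eif2s1 encodes the alpha subunit of eIF2, the target of the stress kinases. The gene (ENSMUSG00000021116, chr12:78861819-78887010) had regions at 2 overlapping places in all 4 lists, one on the exon printed above and one over the end of the transcript. Over IgG it held 5 HA reads against 2 IgG reads in knock-in 1 and 9 against 4 in knock-in 2. The wild-type lists gave it 5 HA reads against 0 and 9 against 0. HA reads were thus above control in every list, but on at most 13 reads. This was so for most regions of each list. HA reads failed to exceed control reads in 4.13% and 40.7% of all regions over IgG, and in 13.5% and 10% over wild type. Over IgG the scaled folds were 0.864 (interval 0.141 to 9.07) and 2.38 (interval 0.663 to 10.6). Against wild type they were at least 1.18 and at least 1.71 against the floor, with counting lower limits of 0.649 and 1.13. The regions, of 1200 bp in knock-in 1 and 800 bp in knock-in 2, that contain the exon with the start codon and the serine codon held 2 HA reads and 0 control reads in each list; both lists of a knock-in count the same HA library.

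Eif4e2 encodes the eIF4E homologue 4EHP, which binds the cap without recruiting eIF4G. It lies at chr1:87213914-87240488 (ENSMUSG00000026254). Over IgG in knock-in 1 it held 11 HA reads and 0 IgG reads, a fold of at least 1.27 against the floor, with a counting lower limit of 0.867 for 0 reads. In the wild-type lists it had 13 HA reads against 7 in knock-in 1, 1.32-fold (interval 0.488 to 3.89), and 25 against 6 in knock-in 2, 2.38-fold (interval 0.953 to 7.10). HA reads were above control reads in all 3 lists that held the gene, 2 of which count the same HA library. This was the usual case, since HA reads failed to exceed control reads in only 4.13%, 13.5% and 10% of all regions there. The mean over wild type was log2 0.82 ± 0.61 (SD, n = 2, 1.77-fold), so the pair differed by a large part of the mean. Without a minimum of reads behind the list median, the log2 values of Eif4e2 were -0.51 and 0.47. In knock-in 1 its side of 1 thus depends on the scale. In the wild-type lists the region near the end of the gene held more than any other, 11 HA and 7 wild-type reads in knock-in 1 and 13 and 5 in knock-in 2. In knock-in 2 the remaining 3 regions held 12 HA reads and 1 wild-type read.

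Eif4g3 encodes an eIF4G scaffold and had the most regions, 7, 8 and 12 in the 3 lists that held it. The gene (ENSMUSG00000028760) spans chr4:137993022-138208508, and its regions were 250 to 2000 bp wide. It held 35 HA and 18 IgG reads in knock-in 1, 0.672-fold (interval 0.370 to 1.26). Against wild type it held 35 HA reads against 26 in knock-in 1, 0.953-fold (interval 0.558 to 1.65), and 60 against 40 in knock-in 2, 0.857-fold (interval 0.565 to 1.31). All 3 folds lay below the list median with intervals that include 1. With the pooled ratio as the scale the IgG fold was 0.503 (interval 0.277 to 0.943), and the wild-type folds turned to 1.58 (interval 0.926 to 2.74) and 1.63 (interval 1.07 to 2.49). The codons of the eIF4E-binding motif of this protein, found once in its sequence, lay 1581 bp from the nearest edge of a called region. The exon printed above lay in a 250-base region with 4 HA and 0 IgG reads in knock-in 1. Over wild type that region held 4 HA reads against 2 in knock-in 1 and 2 against 2 in knock-in 2. The region with the most reads, chr4:138125751-138126750, covered 842 coding bases and was the same in all 3 lists. It held 10 HA and 7 IgG reads in knock-in 1, then 10 and 14 HA reads in knock-in 1 and 2 against 9 wild-type reads. Among 98 regions with identical coordinates in both wild-type lists its log2 difference was -0.28 (SE 0.35, limma adjusted p = 0.601), on a test that called 38.8% of the regions. It set 2 HA libraries against 1, so the spread comes from the HA pair alone and the wild-type library is assumed to vary like it.

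Eif4b encodes a cofactor of the eIF4A helicase. The gene (ENSMUSG00000058655) lies at chr15:102073773-102097173, and 1 long region over its coding part held 92.1%, 92.9% and 85.4% of its HA reads in the 3 lists that held it. These shares go with its width. That region held 2.67, 2.07 and 2.67 HA reads per kb, against 2.67, 2.09 and 2.71 over all called bases of the gene. In knock-in 2 the gene held 38 HA reads and 64 IgG reads, 0.627-fold (interval 0.408 to 0.951). The wild-type lists gave it 28 HA reads against 19 in knock-in 1 and 41 against 20 in knock-in 2, 1.04-fold and 1.17-fold (log2 0.14 ± 0.12 SD, n = 2). IgG reads thus exceeded HA reads, while wild-type reads did not.

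Pabpc1 encodes the main cytoplasmic poly(A)-binding protein, which joins the mRNA tail to eIF4G. The gene (ENSMUSG00000022283) lies at chr15:36595661-36609668. It held 34 HA reads and 68 IgG reads in knock-in 2, 0.528-fold (interval 0.339 to 0.809). In the wild-type lists it had 35 HA reads against 29 in knock-in 1 and 34 against 18 in knock-in 2, 0.855-fold and 1.08-fold (log2 -0.06 ± 0.24 SD, n = 2). Pabpc1 and Eif4b thus shared 1 pattern, below the list median over IgG in knock-in 2 and close to it over wild type. Neither had a region over IgG in knock-in 1, although that list held 529 regions on their chromosome. Both lie on chromosome 15, where the median region ratio of that IgG list was 0.783. Against that ratio Eif4b was 0.758-fold (interval 0.494 to 1.15) and Pabpc1 0.638-fold (interval 0.410 to 0.977), so the interval of Eif4b then included 1. With the pooled ratio of each list as the scale, Eif4b was 0.295-fold (interval 0.192 to 0.448) and Pabpc1 0.249-fold (interval 0.160 to 0.381) over IgG. On that scale they were 2.22-fold (interval 1.27 to 4.01) and 2.05-fold (interval 1.13 to 3.85) over wild type in knock-in 2. Pabpc1 belongs to a family with close copies, and the sources used here do not say how reads that fit several copies were handled.

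Pum2 encodes a Pumilio protein, a repressor that binds UGUA-containing sites in 3' UTRs. The gene (ENSMUSG00000020594) spans chr12:8674134-8752581, and Pum2 was the only member with at least 20 reads in all 4 lists. Over IgG it held 67 HA reads against 19 in knock-in 1, 1.22-fold (interval 0.723 to 2.15), and 47 against 32 in knock-in 2, 1.55-fold (interval 0.969 to 2.51). Against wild type it held 67 HA reads against 64 in knock-in 1, 0.741-fold (interval 0.518 to 1.06), and 47 against 48 in knock-in 2, 0.560-fold (interval 0.366 to 0.855). The mRNA was above the list median over IgG in both knock-ins, at a mean of log2 0.46 ± 0.25 (SD, n = 2). It was below the list median over wild type in both, at a mean of log2 -0.63 ± 0.29 (SD, n = 2). With the pair as replicate block, limma over 392 genes gave a log2 difference to IgG of 0.44 (SE 0.20, adjusted p = 0.189), in a test that called 25.3% of the genes. The side of the list median depends on the scale: with the pooled ratio of each list, Pum2 came to 0.912-fold and 0.731-fold over IgG, and over wild type to 1.23-fold and 1.06-fold. Against regions of its own chromosome, whose median ratios over IgG were 1.64 and 0.714, it was 2.15-fold (interval 1.28 to 3.80) and 2.06-fold (interval 1.28 to 3.33) over IgG. Over wild type it was 0.739-fold (interval 0.517 to 1.06) and 0.567-fold (interval 0.371 to 0.866) on the own-chromosome scale.

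The Pum2 region with the most HA reads was the last in each list. In knock-in 1 it was chr12:8743921-8752560 and held 47 HA, 14 IgG and 47 wild-type reads, which was 70.1% of the gene's HA reads. It touched 8 exons and covered 1081 coding bases and 2843 bases past the coding end. In knock-in 2 the last region, chr12:8743601-8750400, ended within the 3' UTR and held 22 HA, 18 IgG and 26 wild-type reads, 46.8% of the gene's HA reads. It was not the densest there: it held 3.24 HA reads per kb, against 13.3 per kb in the 600 bp region chr12:8728601-8729200. The last region was also the widest on the gene in each list. Both Pumilio motifs printed above lay inside the region of knock-in 1, while the region of knock-in 2 held only the first. The letters TGTANATA were searched on both strands of the 2841 bases of the 3' UTR, with 2 matches on the mRNA strand and 2 on the opposite strand. TGTATATA nearly mirrors itself, so matches on opposite strands can overlap. Among 10218 genes, 35.2% had at least 1 match on the mRNA strand in the last 2841 bases of their longest transcript and 10.2% had at least 2. On the opposite strand 26.1% had at least 1. These bases take in coding sequence where a 3' UTR is shorter, so the shares are not those of 3' UTRs alone. Raw ratios in the last region and in the rest of the gene were 3.36 and 4.00 over IgG in knock-in 1, and 1.22 and 1.79 in knock-in 2. The wild-type lists gave 1.00 and 1.18 in knock-in 1, and 0.846 and 1.14 in knock-in 2. The last region had the lower ratio in each list, with counting intervals that overlap.

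Stau2 encodes a Staufen protein that binds double-stranded RNA and is found in dendritic transport granules. The gene (ENSMUSG00000025920) spans chr1:16228674-16520112. It held 20 HA and 9 IgG reads in knock-in 1, 0.768-fold (interval 0.334 to 1.91). The wild-type lists gave it 20 HA reads against 10 in knock-in 1, 1.42-fold (interval 0.633 to 3.39), and 22 against 7 in knock-in 2, 1.80-fold (interval 0.741 to 4.98). The mean over wild type was log2 0.67 ± 0.24 (SD, n = 2, 1.59-fold), above the list median in both with intervals that include 1. Without a minimum of reads behind the list median, the log2 values of Stau2 were -0.40 and 0.07. In knock-in 1 its side of 1 thus depends on the scale. The region with the most HA reads, chr1:16344446-16345880 in knock-in 1, held 8 HA reads against 5 IgG and against 5 wild-type reads, and the longer region there in knock-in 2 held 14 HA and 5 wild-type reads. All 1435 bases of the region in knock-in 1 lay on 1 terminal exon of the shorter isoforms, 2526 bases long, and 177 of them are also in the principal transcript. Reads at the end of the longer isoforms lay where an antisense gene, Gm28095, overlaps. The counting is not stated to use strand, so reads of that pair cannot be told apart.

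Tia1 encodes an RNA-binding protein of stress granules that regulates both splicing and translation. The gene (ENSMUSG00000071337, chr6:86404219-86433405) had no region over IgG. In the wild-type lists it had 36 HA reads against 14 in knock-in 1, 1.82-fold (interval 0.958 to 3.65), and 65 against 15 in knock-in 2, 2.48-fold (interval 1.40 to 4.68). Its mean of log2 1.09 ± 0.31 (SD, n = 2, 2.12-fold) was the highest over wild type among the 7 members with at least 20 reads in both knock-ins, next to Eif4e2, from which it did not differ beyond the spread. HA reads were above wild-type reads in both knock-ins, and both folds have 1 wild-type library as their control. In these lists HA reads failed to exceed control reads in only 13.5% and 10% of all regions. With the pooled ratio as the scale Tia1 was 3.02-fold and 4.70-fold. With no minimum of reads behind the list median its log2 values were -0.04 and 0.53, so in knock-in 1 its side of 1 depends on the scale. Without a region over IgG, no comparison with IgG can be made for Tia1, although the IgG list of knock-in 1 held 615 regions on chromosome 6.

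Within Tia1 the HA reads lay mainly on an inner region, chr6:86419001-86427800 in knock-in 1 and chr6:86418801-86427800 in knock-in 2, which begins near the 33-base exon. That region was also the widest on the gene and the least dense in HA reads. In knock-in 1 it held 2.84 HA reads per kb, against 7.5 and 3.64 in the others. In knock-in 2 it held 5.22 per kb, against 6.43 in the other. It held 25 HA reads against 7 in knock-in 1 and 47 against 7 in knock-in 2, raw ratios of 3.57 (interval 1.502 to 9.78) and 6.71 (interval 3.02 to 17.6). The authors' deposited table gives it an empirical false discovery rate of 0.812 in knock-in 1 and 0.342 in knock-in 2. Its values for the other regions of the gene are 0.0342 and 0.0605 in knock-in 1 and 0.124 in knock-in 2. The remaining regions of the gene held 11 HA reads against 7 and 18 against 8, raw ratios of 1.57 (interval 0.556 to 4.78) and 2.25 (interval 0.931 to 5.98). The inner region was the higher in both knock-ins, with overlapping intervals. It was picked as the region with the most HA reads, which by itself favours a higher ratio. Both lists also share 1 wild-type library, so this order is no test of a difference along the gene. Of its 8800 bases in knock-in 1, 6665 lay on exons of some Tia1 transcript, but only 864 on coding sequence. A further protein-coding gene model, Gm44790, overlaps these regions on the same strand, and its reads cannot be told apart from those of Tia1.

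**Figure D3:**
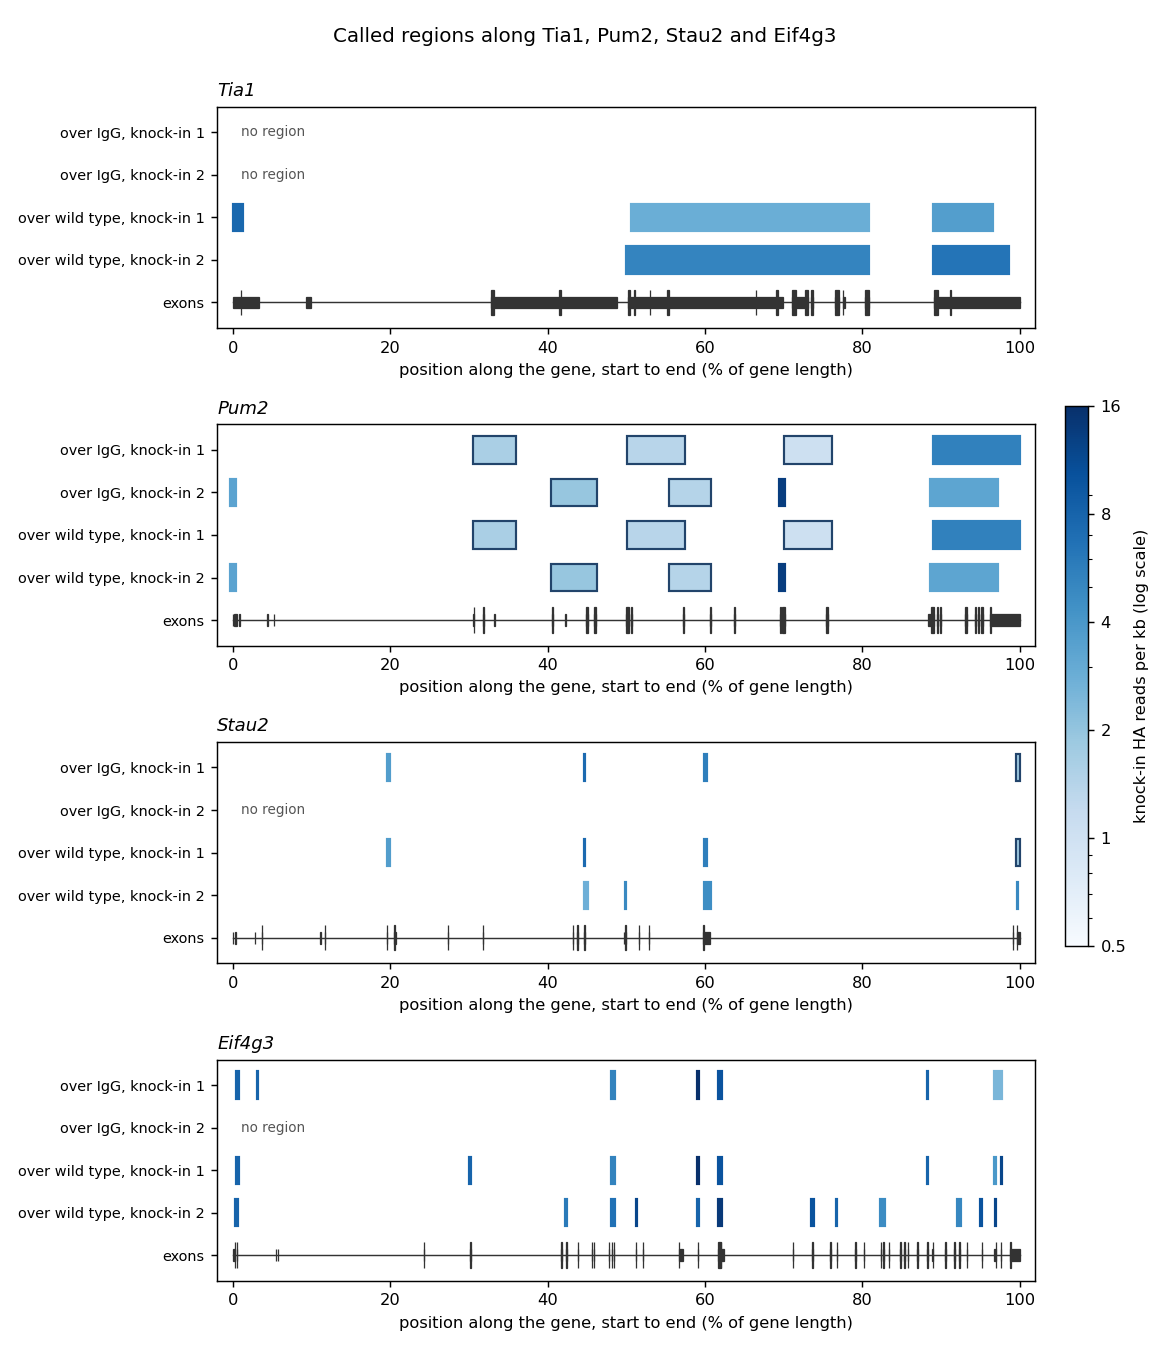
Called regions (boxes) along Tia1, Pum2, Stau2 and Eif4g3 from the start to the end of the gene (x axis, percent of gene length), 1 row per list, shaded by knock-in HA reads per kb on a log scale, with exons below (tall, coding). Tia1 had 1 region at the start of the gene, in knock-in 1, and its other regions in the second part, and the last Pum2 region holds the coding end and the 3' UTR.

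Regions with identical bases in both lists of one knock-in give the 3 libraries side by side, with the same HA reads by construction. In knock-in 1, Pum2 held 67 HA, 19 IgG and 64 wild-type reads, Eif4g3 28, 14 and 24, and Stau2 20, 9 and 10. Eif2s1 held 5, 2 and 0 and Eif4e2 2, 0 and 0. Wild-type reads of Pum2 thus nearly equalled the HA reads and IgG reads were fewest, with an IgG to wild-type ratio of 0.297 (interval 0.168 to 0.502) beside a median of 0.509 over 397 shared regions with at least 20 control reads. In knock-in 2, Pabpc1 held 34 HA, 68 IgG and 18 wild-type reads, Eif4b 38, 64 and 20, Pum2 47, 32 and 48, and Eif2s1 9, 4 and 0. The IgG to wild-type ratio was 3.78 for Pabpc1 (interval 2.22 to 6.75) and 3.20 for Eif4b (interval 1.91 to 5.58), beside a median of 2.28 over 462 shared regions. For Pum2 it was 0.667 (interval 0.412 to 1.06), so Pum2 lay below that median and the chromosome 15 genes did not. The controls thus stood in a different order in the 2 knock-ins for the shared regions, but the sets of regions differ. Those of knock-in 2 come from an IgG list with 828 of 1920 regions on chromosome 12 and 817 on chromosome 15. Summed over all shared regions, IgG held 23076 and wild type 19263 reads in knock-in 2. In knock-in 1 these sums were 15145 and 41515. What sets the IgG library of knock-in 2 apart was not tested.

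**Figure D4:**
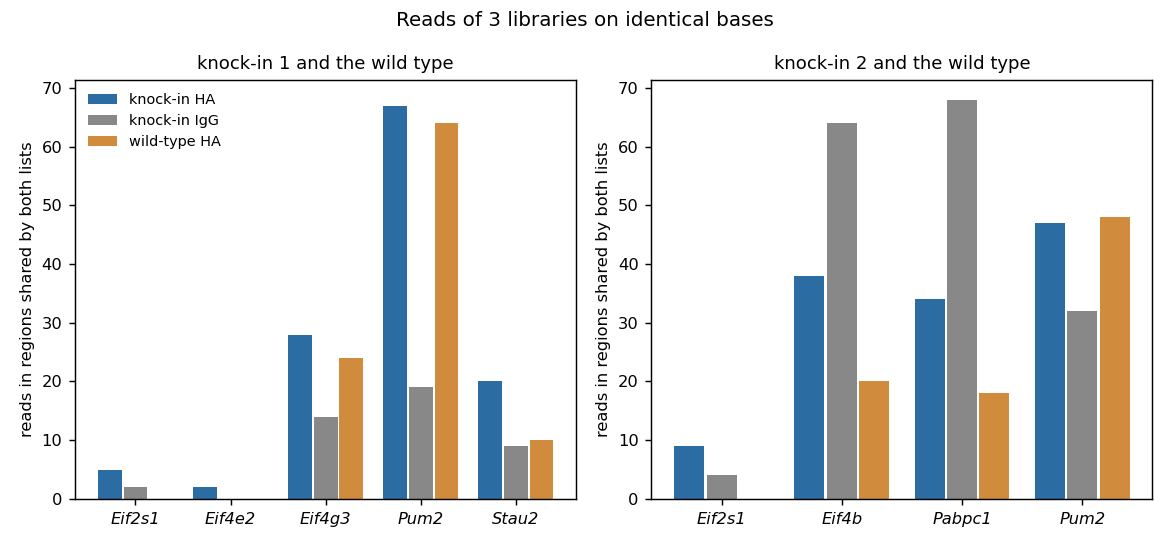
Reads on bases that both lists of a knock-in share (y axis, read count) for the knock-in HA, knock-in IgG and wild-type HA libraries, 1 bar per library and gene. IgG bars are the tallest for Eif4b and Pabpc1 in knock-in 2, while for Pum2 the HA and wild-type bars are close in both knock-ins.

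In what they share beyond the rule, the member regions lay on exons. Of the members' regions, 18 of 19 and 10 of 11 over IgG and 26 of 26 and 33 of 35 over wild type touched an exon, 94.7%, 90.9%, 100% and 94.3%. Regions of all genes touched an exon of any gene in 89.3%, 89.5%, 90.6% and 90.9%, so the members stood close to the rest. By the authors' deposited table, an adjusted p below 0.05 was given to 14 of 19, 7 of 11, 19 of 26 and 23 of 35 member regions, against 64.6%, 87.3%, 82.3% and 78.8% of all regions. An empirical false discovery rate below 10% was given in the authors' deposited table to 1 of 19, 8 of 11, 13 of 26 and 14 of 35, against 4.25%, 71.8%, 48.2% and 48%. HA reads did not exceed control reads in 0 of 19, 4 of 11, 6 of 26 and 6 of 35, against 4.13%, 40.7%, 13.5% and 10%. A deposited region is therefore not by itself an excess of HA reads, and in knock-in 2 over IgG the 4 were both Pabpc1 regions and both Eif4b regions.

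The other genes of the translation machinery were read from 3 lists: 51 initiation factors and their kinases, 9 elongation and termination factors and 46 further mRNA-binding proteins. Of these 106, 23 and 11 had a region in the IgG lists, with 33 and 28 in the wild-type lists, and 9, 8, 18 and 19 had at least 20 reads. Genes of any kind with a region numbered 2703 and 1113 in the IgG lists, the second of which lay mostly on chromosomes 12 and 15. Over IgG in knock-in 1, 1 of 9 was at least 2-fold higher. It was Eif2s3x, the gamma subunit of eIF2, with 20 HA and 2 IgG reads (3.45-fold, interval 0.839 to 30.5). In the same list 1 of 9 was at 0.5 or less, Eif5, the GTPase-activating factor of eIF2, with 30 HA and 25 IgG reads (0.415-fold, interval 0.236 to 0.735). Over wild type in knock-in 1, 1 of 18 was at least 2-fold higher, Eif5b, which joins the ribosomal subunits, with 19 HA and 5 wild-type reads (2.69-fold, interval 0.972 to 9.22). In knock-in 2, 0 of 8 over IgG and 0 of 19 over wild type passed in either direction. Among all genes with at least 20 reads, 9.66% and 8.76% were that high over IgG in knock-in 1 and 2, and 20.1% and 18.9% that low. Over wild type 13.4% and 11.6% were that high, and 4.22% and 4.59% that low. Eif5 lay just short of the lower limit over IgG in knock-in 2, with 32 HA and 66 IgG reads (0.512-fold, interval 0.325 to 0.793). Over wild type Eif2s3x was 0.672-fold in knock-in 2 (20 HA and 17 wild-type reads, interval 0.334 to 1.37). Eif5 was 1.52-fold (interval 0.780 to 3.10) and 1.41-fold (interval 0.718 to 2.92) over wild type. Neither gene lay on the same side of the list median over both controls, but these wild-type intervals include 1. For Eif2s3x the folds over IgG and over wild type also come from different knock-ins. Eif4e, which encodes the cap-binding partner of CYFIP1, had no region in any list.

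The genes whose folds were most like those of a member were found by Euclidean distance of the log2 folds over the lists in which that member had at least 20 reads. For Pum2, over 4 lists and 328 genes, they were Brf1, Zc3h7b and Elfn2 at distances of 0.46, 0.50 and 0.52. For Eif4g3, over 3 lists and 720 genes, they were Dld, Scaf11 and Gm17349 at 0.11, 0.15 and 0.19. For Eif4b, over 3 lists and 465 genes, they were Rnf19a, Gm26518 and Faim2 at 0.16, 0.17 and 0.20. For Pabpc1 they were Cyc1, Maf1 and Sharpin, all at 0.14 because these 3 neighbours share reads. The lists behind a distance share libraries, and the distance of Pum2 is taken over 1 list more than the others.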

How the data were processed

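RNA from 5 hippocampal immunoprecipitates was sequenced with 50 cycles, single-end, per the labels' protocols. TopHat, TopHat2 and the builds GRCm38 and mm10 are named in the submitters' processing notes, and rtracklayer 1.28.9 in the file headers; the sources used here do not name the region caller. For each region the deposited lists hold read counts of both libraries, not scaled for library size, and other values, namely the authors' adjusted p-value and an empirical false discovery rate.

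Counts were summed per gene and list and scaled by the list's median over regions of 20 reads or more (Python 3.11.15, pandas 2.3.3, scipy 1.17.1). For limma 3.58.1, 0.5 was added to the counts before log2, with Benjamini-Hochberg adjustment over all genes or regions; it was added after seeing the data and tested on simulated counts. It used the 392 genes with at least 20 reads in both IgG lists as pairs, and 98 identical regions of the wild-type lists. Region places and sequences come from GENCODE M21 on GRCm38. The knock-in numbers in the labels pair HA with IgG. The members, gene lists and limits were chosen with earlier results of these data known. All members are named; other pathway genes only when past 2-fold on at least 20 reads, at most 6 per control. Alternatives were other scales, region filters, limits and left-out libraries. A few items are not reported here.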

Additional observations from a re-analysis of the deposited data

How the results depend on the processing

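Values here are log2 scaled ratios. The planned test of member regions with identical coordinates in both IgG lists was not run, since there are 0 such regions. With the pair as replicate block, limma gave Pum2 0.44 over IgG on the median scale (adjusted p = 0.189) and -0.31 on the pooled scale (adjusted p = 0.411). The mean of the folds of both knock-ins was 0.46. That mean pairs HA with IgG in the same way and differs only in that 0.5 was not added to the counts. On the pooled scale limma called 24 genes higher and 276 lower over IgG, against 26 and 73 on the median scale, and 36 regions higher and 16 lower over wild type, against 12 and 26. For the sum of the members over IgG the value was -0.01 in knock-in 1, 1.52 without scaling; in knock-in 2 it was -0.31, -1.40 with the pooled ratio and -0.88 with no minimum of reads behind the scale. Over wild type it was 0.00 in knock-in 1, 0.73 with the pooled ratio, 0.50 without scaling and -0.90 with no minimum; in knock-in 2 it was 0.20, 1.12, 1.00 and -0.58 in that order, and 0.69 for regions with an authors' adjusted p below 0.05. The mean of both over IgG (-0.16) was -0.91 with the pooled ratio and 0.57 without scaling, and over wild type (0.10) it was 0.93 and 0.75; leaving out a replicate gave -0.31 to -0.01 over IgG and 0.00 to 0.20 over wild type. Pum2 over wild type in knock-in 2 turned to 0.088 with the pooled ratio, and Eif4b over IgG in knock-in 2 to 0.079 when only its inside region, with 3 HA and 3 IgG reads, was kept. Those are the 2 turns of a fold whose own interval lay apart from 1. Of 153 single-member alternatives, 32 lay on the other side of 1 from the main fold, 9 of them with no minimum of reads, 8 with the pooled ratio and 7 without scaling; apart from the 2 turns, 125 stayed inside the counting interval and 26 left it. The Eif4g3 region over wild type was 0.55 with the pooled ratio (limma adjusted p = 0.145) and -0.35 to -0.20 with 1 HA library left out. At a 1.5-fold limit the members counted as higher were 0 of 3, 1 of 3, 1 of 7 and 3 of 7. Those counted as lower were 0, 2, 0 and 1, in the order IgG 1, IgG 2, wild type 1 and wild type 2. The share of all genes past 1.5-fold was not computed, so these counts have no background beside them. Reads of 2 to 47 per region limit every fold.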
